A study of Rattus norvegicus with 4 samples.

Results

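The genes described here encode the machinery of oxidative phosphorylation in the rat stomach, grouped by respiratory complex I to V. Members were all probe sets of the deposited value table whose platform gene symbol named a single gene and matched the symbol patterns of NADH dehydrogenase (Nduf with a, b, c, s or v), succinate dehydrogenase (Sdha to Sdhd), the cytochrome bc1 complex (Uqcr and Cyc1), cytochrome c oxidase (Cox4 to Cox8) or ATP synthase (Atp5). This gave 85 of the 10411 genes named alone (90 of 15866 probe sets): 39 in complex I, 4 in complex II, 8 in complex III, 18 in complex IV and 16 in complex V. Ndufa4 and its paralogue Ndufa4l2 carry complex I names and were counted with complex IV, where the Ndufa4 protein is now placed. The symbol patterns also took 5 complex I assembly factors (Ndufaf3, 4, 5, 7 and 8), the ATP synthase inhibitor Atp5if1 and the pseudogene Cox6c-ps1, which are not subunits. A further 7 probe sets that pair a matching symbol with another gene were left out.

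Mucosa scraped from the oxyntic (acid-producing) region of the stomach came from female Sprague-Dawley rats labelled as 8 weeks old and studied at 21 days. The control is 1 Affymetrix RAE230A chip that holds pooled RNA of 8 rats given the vehicle of the depot. The treated group is 3 chips, each with pooled RNA of 2 rats given octreotide LAR, a slow-release depot of a somatostatin analogue, at 5 mg per animal; these are called pools 1, 2 and 3. All animals were fasted overnight, and no genotype or transgene differed between them. The group was taken from the sample titles; the vehicle sample's source name also mentions octreotide LAR. Animals were pooled before hybridisation, so spread between single rats cannot be seen, and a peculiarity of the lone vehicle chip cannot be told apart from an effect of treatment. Over all probe sets the chips had median signals of 223.7 to 233.4. The proton pump genes Atp4a and Atp4b, defining markers of the parietal cell, had signals from 23835 to 42462 over the 4 chips, so the labelled tissue was borne out by its markers.

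Oxidative phosphorylation couples the oxidation of NADH and succinate to ATP synthesis in the inner mitochondrial membrane. Complexes I and II pass electrons to ubiquinone, complex III passes them to cytochrome c, complex IV hands them to oxygen, and complex V uses the proton gradient to make ATP. Parietal cells are among the most mitochondria-rich epithelial cells, since the gastric proton pump consumes ATP. In bulk mucosa, fewer parietal cells and less messenger RNA per parietal cell cannot be told apart. The subunits encoded by mitochondrial DNA are not among the members.

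Nuclear genes for these subunits are known to share promoter sites for the factors NRF1 and YY1, so the promoters were searched for their letters. RefSeq promoters of the GRCr8 assembly, 250 bases before to 50 bases after each gene's start, were at hand for 76 of the 85 genes. The NRF1 letters (GCGCA, any base, then GCGC), read on both strands, occurred in 15 of the 76 member promoters (19.7%), in 10.5% of the 6607 promoters of genes tested on the chips and in 4.25% of all 33469 promoters. The form with T as the free base, which the first count includes, occurred in 6.58% of member promoters against 2.03% of those of tested genes. The YY1 letters AAGATGGCG occurred in 14.5% against 4.15%, and 9 of the 11 matches lay from the start site onwards. The SP1 letters GGGCGG occurred in 42.1% against 64.2%, and the ETS letters CCGGAAGTG in 3.95% (3 promoters) against 4.51%. The estrogen-related receptor letters TCAAGGTCA occurred in only 2 of 76 member promoters (2.63%), against 20 of 6607 (0.303%). Each share is a description of letters and not of binding. On all treated chips, 25.2% of all tested genes lay above the vehicle chip and 24.0% below it. Of the 15 genes with the NRF1 letters, 4 lay above the vehicle chip on all treated chips (Sdha, Ndufaf4, Ndufa5 and Ndufv3) and 4 below it (Atp5po, Atp5me, Atp5f1c and Ndufb4). The brighter Ndufv3 probe set, used here, was above by only 0.004 and 0.007 (log2) on pools 2 and 3. Its dimmer probe set, also tested, went both ways. Windows below are for the genes in brackets and for Ndufa11 and Uqcrc1, which went both ways. They show the NRF1 letters in capitals where these lie wholly upstream of the start. In Atp5f1c and Ndufb4 the letters span or follow the start, and no window is printed. A further Sdha match spans the start and is not shown. In the Ndufa11 window a further match overlaps the capitals and runs on in lower case. Where the capitals begin with GCGCC, the letters are on the opposite strand.
Sdha at chr1:30764444-30764493, plus strand, complex II: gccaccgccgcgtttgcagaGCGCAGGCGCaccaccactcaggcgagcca
Sdha at chr1:30764487-30764536, plus strand, complex II: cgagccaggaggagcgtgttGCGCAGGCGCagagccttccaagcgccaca
Ndufaf4 at chr5:43401617-43401666, plus strand, complex I: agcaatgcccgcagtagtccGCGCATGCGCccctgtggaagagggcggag
Ndufa5 at chr4:53971238-53971287, minus strand, complex I: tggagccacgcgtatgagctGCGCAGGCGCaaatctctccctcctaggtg
Ndufv3 at chr20:9613727-9613776, plus strand, complex I: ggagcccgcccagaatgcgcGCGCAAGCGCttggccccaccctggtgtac
Ndufa11 at chr9:1637497-1637546, plus strand, complex I: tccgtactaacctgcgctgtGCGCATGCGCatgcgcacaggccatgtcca
Uqcrc1 at chr8:118468139-118468188, plus strand, complex III: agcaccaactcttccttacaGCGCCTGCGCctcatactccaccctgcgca
Atp5me at chr14:1464764-1464813, plus strand, complex V: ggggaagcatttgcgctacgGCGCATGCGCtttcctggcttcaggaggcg
Atp5po at chr11:44657513-44657562, minus strand, complex V: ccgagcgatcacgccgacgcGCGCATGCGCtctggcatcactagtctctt

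The capital letters begin 89 and 46 bases upstream of the Sdha start, 158 upstream for Ndufaf4, 32 for Ndufa5, 39 for Ndufv3, 97 for Ndufa11, 64 for Uqcrc1, 76 for Atp5me and 59 for Atp5po. The 15 tested genes with the NRF1 letters had a median log2 difference from vehicle of -0.08, as did the 56 tested genes with a promoter but without them. By pool, the medians were 0.12, -0.04 and -0.16 with the letters and 0.02, -0.15 and -0.11 without. Of all tested genes, 25.2% lay above vehicle on all treated chips and 24.0% below. With the letters, 26.7% of genes lay above and 26.7% below. Without them, 10.7% lay above and 35.7% below. The difference between these sets was not tested.

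The design allows the question whether transcripts of the respiratory chain differed after 21 days of octreotide LAR. No member was called higher or lower. Of the 90 member probe sets, 82 from 80 genes passed the filter on dim signals and were tested. The limma test called 0 of them at an adjusted p under 0.05, against 0.105% of all 9520 probe sets (0.0945% higher and 0.0105% lower), and each adjusted p was 0.9998. None of the 82 had an unadjusted p under 0.05, where 4.57% of all probe sets did (2.86% higher and 1.71% lower); the smallest in limma was 0.0541, that of Ndufs4. The intervals bound a difference only if the vehicle chip varies like the treated chips, which alone supply the spread. A shift peculiar to the lone vehicle chip is not covered by them. The 95% interval of the difference lay inside a 2-fold change in either direction for 77 of the 80 genes, 96.2%, against 83.2% of the 7150 genes tested. It lay inside a 1.5-fold change for 60 of the 80 genes, against 28.9% of all genes. The test fits spread with a trend on signal, and 69 of the 80 genes had all 4 signals above 1000. Of the tested cytosolic ribosomal protein genes, also bright, 73.3% lay inside 1.5-fold. Of the dimmer genes for transcription and mitochondrial DNA upkeep, 0.0% did. The members were not compared with genes of like signal. The 3 genes whose interval reached past 2-fold were Ndufs4, Ndufaf7 and Cox6c-ps1. The median half-width of the interval was 0.36 on the log2 scale over the members and 0.52 over all genes tested.

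**Figure D1:**
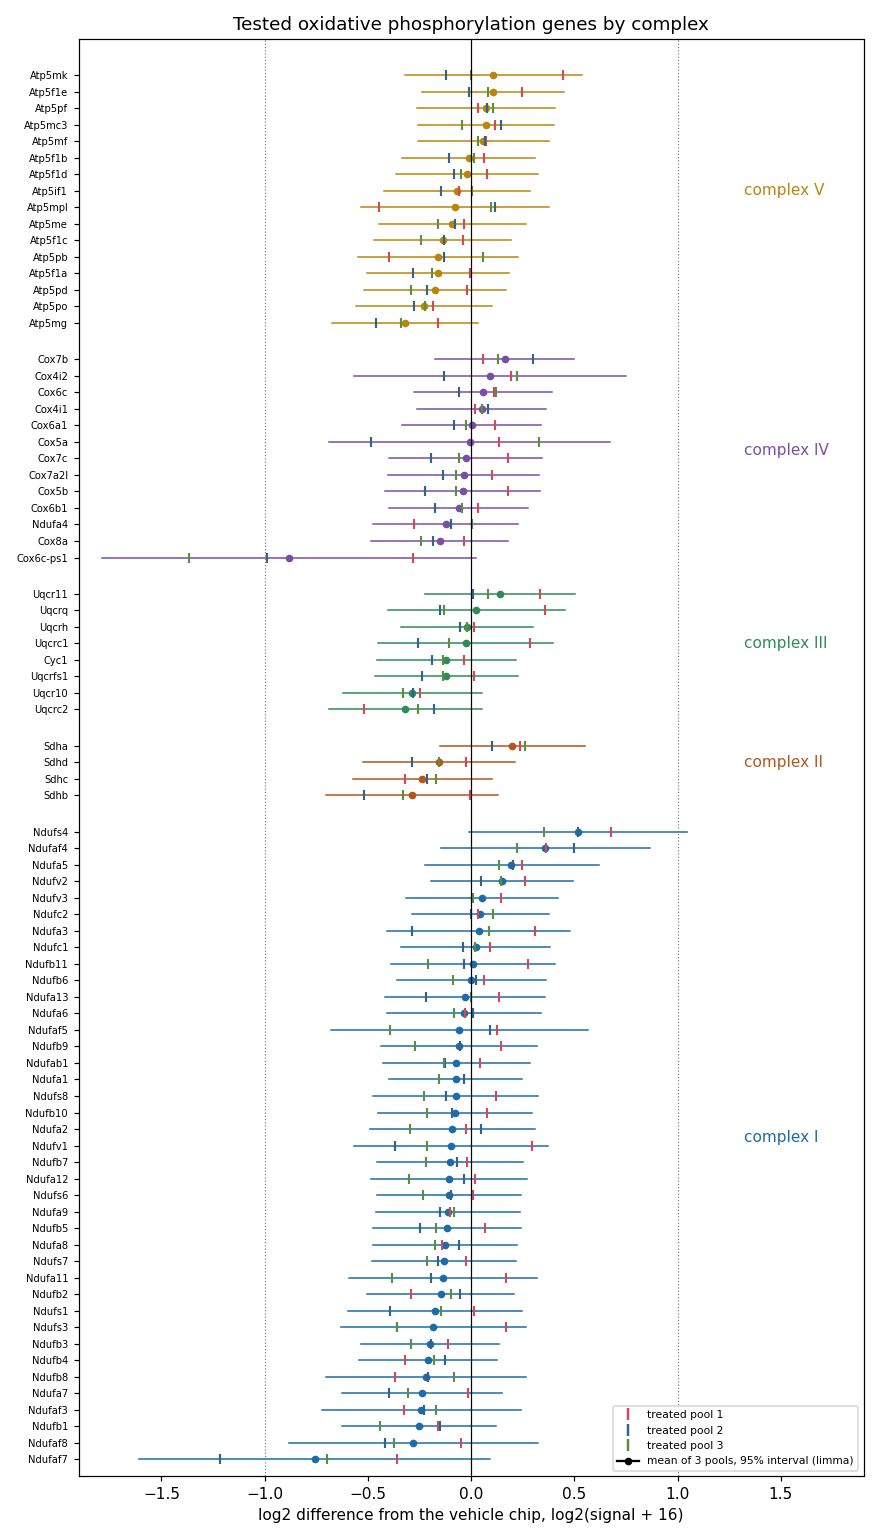
Log2 difference from the vehicle chip, on the log2(signal + 16) scale, for each of the 80 tested genes; dots are means of 3 treated pools, lines are limma 95% intervals, ticks are single pools, and dotted lines mark a 2-fold change. Every interval includes 0, and those of Ndufs4, Ndufaf7 and Cox6c-ps1 reach past a dotted line.

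Most mean differences were small and negative. In the mean, 58 of the 80 genes (72.5%) lay below the vehicle chip, where 50.2% of all tested genes did. On all treated chips, 28 genes lay below the vehicle signal, 35.0% against a background of 24.0%, and 11 lay above it, 13.8% against 25.2%. For the other 41 genes the vehicle signal lay inside the range of the treated chips, 51.2% against 50.8% of all genes. Without pool 1, 51 genes lay below vehicle on both remaining treated chips, and without pool 2, 20 lay above it on both. The shares over all genes apply to all treated chips together, and none was drawn up for these counts. The median log2 difference was -0.08 over the members and -0.00 over all genes tested. By complex the median was -0.10 for complex I, -0.20 for complex II, -0.07 for complex III, -0.03 for complex IV and -0.07 for complex V. Leaving out a pool moved several of these by over 1.5 times: complex I to -0.04 without pool 3, complex II to -0.13 without pool 2, and complex III to -0.17 without pool 1 and -0.03 without pool 2. Complex IV went to -0.08 without pool 1 and to 0.05, on the other side of 0, without pool 2. The shares over all genes given here are also the background for the counts by complex and list that follow. All treated chips share the same vehicle chip, so these counts move together and were given no test.

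Complex I takes electrons from NADH through a flavin and a chain of iron-sulphur clusters in its matrix arm. All 39 of its genes were tested, and 30 had a treated mean below vehicle; for 14 genes all treated chips were below. Mean log2 differences ran from -0.76 to 0.52. The largest positive one was that of Ndufs4, an accessory subunit of the NADH-oxidising tip. Its signal was 343.0 with vehicle against 558.6, 498.1 and 442.2 on pools 1, 2 and 3. All treated chips were above the vehicle chip, and the treated mean of 499.6 ± 58.2 (SD, n = 3) differed by 0.52 on the log2 scale (95% interval -0.01 to 1.04). This 1.43-fold difference was not past the threshold (limma adjusted p = 0.9998).

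Ndufv2, an iron-sulphur flavoprotein subunit of the same tip, had 5225.5 on the vehicle chip against 6268.4, 5402.3 and 5768.7. It lay above vehicle on all treated chips, by 0.15 on the log2 scale in the mean. Its partner Ndufv1, which binds NADH and the flavin, had 4746.4 against 5818.3, 3667.1 and 4093.2. Pool 1 was above and pools 2 and 3 were below the vehicle chip, so Ndufv1 went both ways. Ndufs1, the large iron-sulphur subunit, had 1938.4 against 1958.7, 1474.5 and 1751.6, again with pool 1 alone at or above vehicle. The 9 tested genes of the NADH-oxidising part had a median of -0.10, the 5 of the quinone-reducing part -0.11 and the 13 membrane-arm genes with b and c symbols -0.10. No region of the complex differed from another by more than 0.02 in its median.

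Among the quinone-reducing subunits, Ndufa5 had 858.3 on the vehicle chip and 1022.3, 989.6 and 944.3 on the treated chips, all above it. Ndufs3, a core subunit of this part, had 4480.2 against 5042.6, 3489.4 and 3485.9. It was above vehicle on pool 1 and below it on pools 2 and 3. Ndufs7, which carries the last iron-sulphur cluster before ubiquinone, had 4305.3 against 4233.9, 3853.0 and 3714.1. It was below vehicle on every treated chip, by 0.02 on pool 1 and by 0.16 and 0.21 on pools 2 and 3 on the log2 scale.

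Of the 13 membrane-arm genes with b and c symbols, 6 were below vehicle on every treated chip and 0 were above it on every one, where 24.0% of all tested genes were below and 25.2% above. Ndufb4 had 8829.2 on the vehicle chip against 7075.7, 8073.4 and 7787.6, which is -0.21 on the log2 scale (95% interval -0.54 to 0.13). Ndufb1 had 4650.7 against 4162.2, 4180.1 and 3414.4, a difference of -0.25 with an interval from -0.63 to 0.12, and of -0.16 without pool 3. Both are accessory subunits without cofactors. Ndufb3, another of them, had 7156.2 against 6623.0, 6254.0 and 5837.3. The groups did not overlap for these 3 genes, as for 24.0% (below) and 25.2% (above) of all tested genes, and no difference passed the threshold (limma adjusted p = 0.9998 for each).

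The assembly factors of complex I differed among themselves. Ndufaf7, a methyltransferase that acts on a core subunit, had 265.0 on the vehicle chip against 202.8, 105.0 and 157.4. Its difference was -0.76 (log2), with a 95% interval of -1.61 to 0.09. Ndufaf4, a factor of early assembly, had 416.8 against 539.5, 595.0 and 488.0, a difference of 0.36 with an interval from -0.15 to 0.86. Ndufaf3, its partner in assembly, had 615.5 against 487.6, 523.1 and 545.3. Ndufaf4 was therefore above and Ndufaf3 below vehicle on every treated chip. Ndufaf8 was below vehicle on all of them, and Ndufaf5 went both ways.

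Complex II, which oxidises succinate and is also an enzyme of the citrate cycle, is complete here with 4 of 4 subunits. Its catalytic flavoprotein stood on the other side of the vehicle chip from the other 3 subunits. Sdha, the flavoprotein, had 3242.4 on the vehicle chip against 3825.1, 3476.9 and 3882.3. All treated chips were above vehicle, with a treated mean of 3728 ± 219 (SD, n = 3) and a difference of 0.20 on the log2 scale (95% interval -0.15 to 0.55). Sdhb, the iron-sulphur subunit, had 5245.6 against 5220.6, 3657.3 and 4174.4. Pool 1 was within 0.01 of vehicle on the log2 scale, and pools 2 and 3 were 0.52 and 0.33 lower. Its mean difference was -0.28 with all pools and -0.17 without pool 2.

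Sdhc and Sdhd anchor complex II in the membrane. Sdhc had 6171.7 on the vehicle chip against 4930.6, 5312.6 and 5480.3, a treated mean of 5241 ± 282 (SD, n = 3) and a difference of -0.24 with an interval from -0.57 to 0.10. The brighter Sdhd probe set had 3635.6 against 3570.0, 2979.6 and 3263.5, a difference of -0.16, and of -0.09 without pool 2. The dimmer had 2733.5 against 2525.7, 1749.0 and 2189.6, a difference of -0.36. Both Sdhd probe sets were below vehicle on all treated chips and lowest on pool 2. None of these differences passed the threshold (limma adjusted p = 0.9998 for each).

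**Figure D2:**
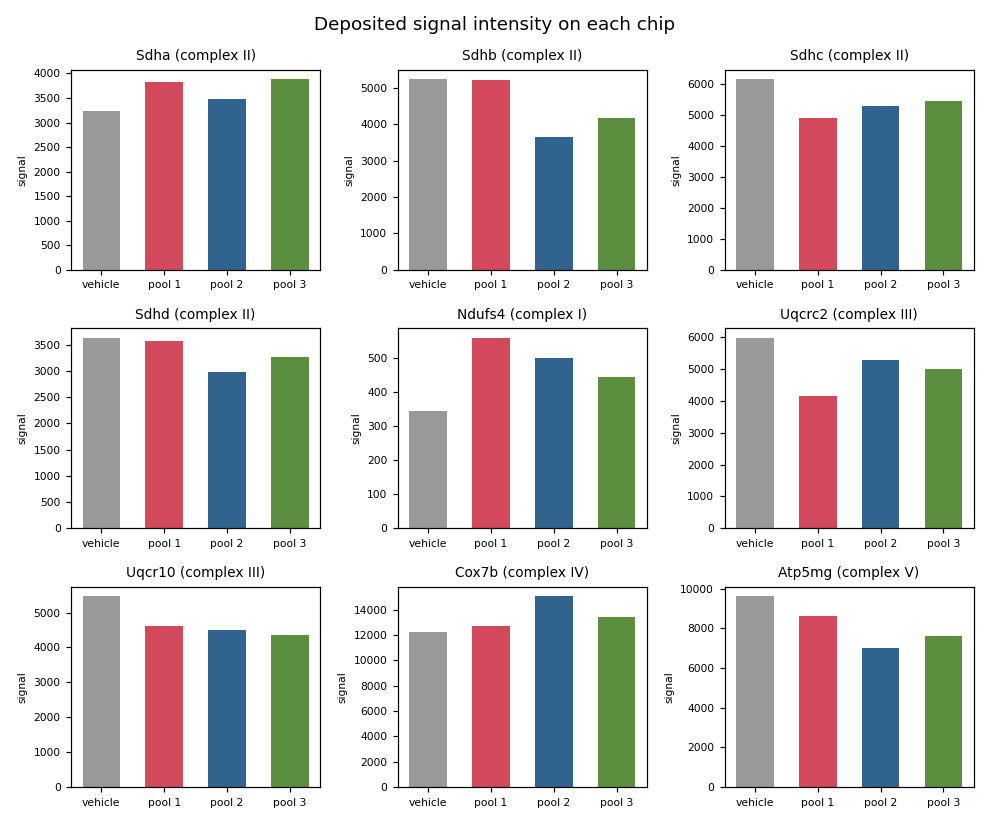
Deposited linear signal (vertical axis, from 0, in arbitrary units) on the vehicle chip and on treated pools 1, 2 and 3 for the 4 complex II genes and for Ndufs4, Uqcrc2, Uqcr10, Cox7b and Atp5mg. Sdha, Ndufs4 and Cox7b were above the vehicle chip on every pool and the other 6 were below it, with none past the threshold.

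Complex III moves electrons from ubiquinol to cytochrome c. All 8 of its genes were tested, 6 were below vehicle in the mean and 3 on every treated chip. Uqcr10, a small subunit next to cytochrome c1, had 5469.2 on the vehicle chip against 4610.1, 4494.3 and 4352.7. The treated chips lay close together, at 4486 ± 129 (SD, n = 3), all below vehicle, with a difference of -0.29 and an interval from -0.62 to 0.05. Uqcrc2, a core protein, had 5991.7 against 4172.7, 5287.8 and 5015.9, a difference of -0.32 with an interval from -0.69 to 0.05. Pool 1 was the lowest chip for Uqcrc2.

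The other core protein, Uqcrc1, had 5977.7 on the vehicle chip against 7297.2, 4999.8 and 5541.7, with pool 1 the highest of all 4 chips. The 2 core proteins thus stood in opposite order on pool 1, although they form a pair in the complex. Cyc1, cytochrome c1, had 6257.6 against 6110.5, 5480.1 and 5692.9 and was below vehicle on all treated chips. Uqcrfs1, the Rieske iron-sulphur protein, had 7347.6 against 7423.5, 6222.4 and 6675.8 and went both ways. Uqcr11, a small accessory subunit, had 5797.5 against 7307.3, 5825.5 and 6126.6, above vehicle on all treated chips. Uqcrh, the hinge protein, was within 0.06 of vehicle on every treated chip on the log2 scale.

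Complex IV, cytochrome c oxidase, has nuclear subunits with tissue isoforms, and its 18 members include several of them. Of the ubiquitous isoforms, Cox4i1, Cox6a1, Cox6b1 and Cox8a were tested, while the probe set of Cox7a2 also names another gene and was left out. Cox4i1 had 16373.4 on the vehicle chip against 16587.2, 17310.9 and 16978.1, a difference of 0.05 with an interval from -0.26 to 0.36. Its treated chips were all slightly above vehicle, at 16959 ± 362 (SD, n = 3). With quantile normalization the Cox4i1 difference was -0.02. Cox4i2, the isoform known from lung and from low oxygen, had 235.6 against 271.4, 213.6 and 277.0 and went both ways.

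Cox6a1 had 7303.2 on the vehicle chip against 7912.0, 6890.8 and 7172.4, a difference of 0.00 with an interval from -0.34 to 0.34. Its muscle counterpart Cox6a2 had 20.0 against 5.5, 5.2 and 8.2, under the filter and not tested. Cox8a had 11930.8 against 11659.1, 10505.6 and 10073.6, below vehicle on all treated chips, with a difference of -0.15 (-0.24 with quantile normalization). Cox8b, its muscle counterpart, had 10.3 against 4.7, 9.4 and 6.1 and was not tested. The muscle isoform Cox7a1 had 148.4 against 177.4, 140.7 and 31.3, and the testis isoform Cox6b2 had 6.9 against 28.4, 23.0 and 10.4. Signals this low have no order, and detection calls were not used here, so presence or absence of these isoforms cannot be stated.

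Cox6b1 had 8674.0 on the vehicle chip against 8888.6, 7675.2 and 8418.8, a difference of -0.06. Cox7b, a small subunit, had 12246.0 against 12742.8, 15068.9 and 13402.5. It was above vehicle on every treated chip, by 0.16 in the mean with an interval from -0.17 to 0.50. The difference was 0.06 with quantile normalization and 0.09 without pool 2. Ndufa4 had 7379.1 against 6093.4, 6896.2 and 7397.1, and pool 3 lay at the vehicle level. Cox7a2l, which helps join complexes III and IV, had 3145.8 against 3374.7, 2859.5 and 2988.8. Its difference was -0.04 with all pools and 0.01 without pool 2.

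The largest negative difference in the whole set was that of the pseudogene Cox6c-ps1, with 290.9 on the vehicle chip against 236.2, 138.4 and 102.8. This is -0.88 on the log2 scale, with a 95% interval of -1.79 to 0.02. Cox6c itself, the gene from which it derives, had 8337.8 against 9010.0, 8013.3 and 9068.9, a difference of 0.06. A probe set for a pseudogene can share sequence with its parent gene, so the Cox6c-ps1 signal is uncertain. Apart from it, the tested complex IV genes had mean differences between -0.15 and 0.16.

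Complex V, the ATP synthase, has a catalytic head, a peripheral stalk and a membrane part. All 16 of its genes were tested; 11 had a treated mean below vehicle, and 6 lay below it on all pools. In the head, the catalytic subunit Atp5f1b had 19628.9 on the vehicle chip against 20469.9, 18205.7 and 19799.2, a difference of -0.01 with an interval from -0.33 to 0.31. Atp5f1a, its partner in the head, had 11245.7 against 11204.2, 9255.3 and 9851.8, a difference of -0.16, and of -0.10 without pool 2. Atp5f1c, the central shaft, had 11589.6 against 11263.0, 10573.2 and 9802.3. Both Atp5f1a and Atp5f1c were below vehicle on all treated chips, by 0.04 or less on pool 1.

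The peripheral stalk had the lowest median of the parts, at -0.17 over 4 genes, against -0.02 for the 5 head genes and -0.01 for the 6 membrane genes. Atp5po, the stalk protein that holds the head, had 7367.2 on the vehicle chip against 6480.4, 6070.1 and 6311.6. The treated chips lay at 6287 ± 206 (SD, n = 3), all below vehicle, with a difference of -0.23 and an interval from -0.56 to 0.10. Atp5pd had 12651.2 against 12479.7, 10915.4 and 10333.8. Atp5pf, of the same stalk, had 4570.3 against 4680.5, 4816.9 and 4916.1, above vehicle on every treated chip.

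In the membrane part, Atp5mg had 9623.2 on the vehicle chip against 8612.4, 6985.8 and 7590.1. Its difference of -0.32, with an interval from -0.67 to 0.03, was the lowest among the complex V members, which leave out probe sets naming several genes. Atp5mc3, which encodes the ring subunit that carries protons, had 11890.2 against 12897.4, 13120.7 and 11521.4 and went both ways. The inhibitor Atp5if1, which blocks the enzyme from running backwards, had 3469.0 against 3323.7, 3130.2 and 3481.5 on its bright probe set. Its 2 dim probe sets, at 71.0 to 127.2 over the 4 chips, were not tested.

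The members' medians differed among the treated pools. Median differences from vehicle over all 80 genes were 0.02 on pool 1, -0.13 on pool 2 and -0.13 on pool 3, while those over all tested genes were within 0.02 of 0 on each pool. Below the vehicle signal lay 34 genes on pool 1, 63 on pool 2 and 56 on pool 3. Complex IV had medians of 0.10, -0.14 and -0.03. Complex III had 0.01, -0.19 and -0.14, and complex I had 0.03, -0.10 and -0.17. Complex V had -0.01, -0.12 and -0.02.

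The order of the treated chips among themselves does not involve the vehicle chip. Pool 1 had the highest of the 3 treated signals for 54 of the 80 member genes, 67.5%, where it did for 34.6% of all tested genes. Pools 2 and 3 were each the highest for 13 genes, and pool 2 was the lowest for 38. For complex III, pool 1 was the highest for 7 of 8 genes. With quantile normalization pool 1 was the highest for 51 of 80 genes, and with centring on the 75th percentile for 59. Genes of 1 chip are not independent, and the groups are the study's own pools, so no test was made. The median over all members, -0.08 with all pools, became -0.13 when pool 1 was left out, -0.06 when pool 2 was and -0.04 when pool 3 was. Without pool 1, 7 of 82 member probe sets had an unadjusted p under 0.05 in limma, against 664 of all 9520 probe sets. No member was called there (lowest limma adjusted p = 0.3841).

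**Figure D3:**
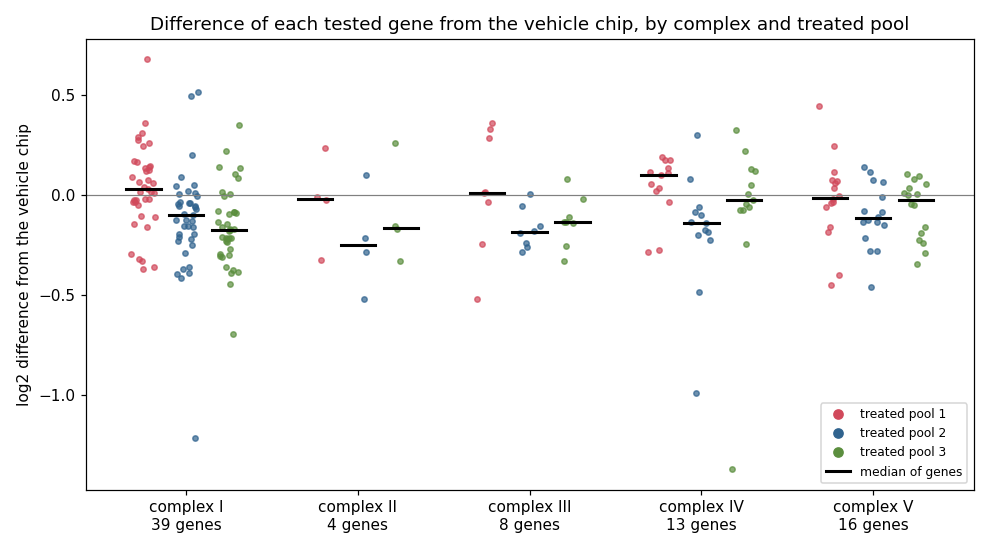
Log2 difference from the vehicle chip (vertical axis) of each tested gene on treated pools 1, 2 and 3, by complex; black bars are medians over the genes. The pool 1 median is 0.03 for complex I and 0.10 for complex IV, and the pool 2 medians of all complexes lie below 0.

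Some marker lists of mucosal cells followed this order and others did not. The 8 parietal cell markers (Atp4a, Atp4b, Kcnq1, Kcne2, Slc9a4, Car2, Ckmt1 and Aqp4), all tested, had medians of 0.10, -0.22 and -0.16 on pools 1, 2 and 3. Their summed signal was 85499 on the vehicle chip and 91141, 81928 and 77381 on the treated chips. Atp4a and Atp4b, at 26692.5 and 39973.9 on the vehicle chip, make up most of this sum. Kcnq1, Kcne2 and Slc9a4 lay below vehicle on all treated chips, at mean log2 differences of -0.58, -0.37 and -0.50. They are 37.5% of the list, against 24.0% of all tested genes, and the other 5 markers went both ways. The 11 squamous epithelium markers, genes of the neighbouring forestomach lining, had summed signals of 1892 on the vehicle chip and 9586, 7064 and 6164 on the treated chips. Their median differences were 2.16, 1.71 and 1.495, and all 11 were above vehicle on every treated chip. The 5 enterochromaffin-like cell markers had medians of -0.96, -0.93 and -1.06, and the 4 surface mucous cell markers 0.25, 0.25 and 0.17 on the pools. The 6 chief cell markers had medians of -0.55, -0.11 and -0.11, and the 8 smooth muscle markers 0.09, -0.04 and -0.17. The 5 fibroblast markers had medians of 0.09, -0.05 and -0.07, and the 2 tested white fat markers 1.04, -0.60 and 0.08. Only 1 immune cell marker (Cd74) and 1 brown fat marker (Cidea) were tested, at 0.18, 0.09 and 0.45 and at 0.36, 0.21 and 0.26. Of the 10 striated muscle markers, 7 were under the filter, Myh7 and Tnnt1 with signals under 40 on every chip. The 3 tested, Acta1, Ckm and Tnni2, had medians of 0.20, 0.26 and -0.04 on the pools. Acta1 had 619.9 on the vehicle chip against 716.6, 745.2 and 580.8, and Ckm had 485.5 against 698.7, 378.1 and 472.5. The part of these cell types in the members' values was not tested.

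Other mitochondrial genes were read in the same way. No gene of these lists was called (limma adjusted p = 0.9998 for each). Of 15 citrate cycle genes, 13 were below vehicle in the mean and 7 on every treated chip, against 50.2% and 24.0% of all tested genes, with medians of 0.00, -0.25 and -0.15 on pools 1, 2 and 3. Pdhb, of pyruvate dehydrogenase, had 3525.3 on the vehicle chip against 3052.4, 2932.7 and 2873.4. Sucla2, of succinyl-CoA synthetase, had 2895.8 against 2588.5, 2196.0 and 2444.6. Both were below vehicle on every treated chip.

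Of 12 tested carriers and membrane proteins, 8 were below vehicle in the mean, with medians of 0.02, -0.06 and -0.15 on the pools. Slc25a4, an ADP/ATP carrier, had 4540.8 on the vehicle chip against 4441.2, 3367.5 and 3472.8. Vdac3, a pore of the outer membrane, had 6766.0 against 6220.7, 5450.3 and 6030.4. The 6 tested electron carriers and entry enzymes had medians of 0.04, -0.12 and -0.08. Among them Sqor, which passes electrons from sulphide to ubiquinone, had 3334.4 against 3588.0, 3642.6 and 3923.4, and Gpd2, a glycerol phosphate dehydrogenase, had 389.9 against 513.5, 349.9 and 544.5. Of 71 mitochondrial ribosomal genes, 48 were below vehicle in the mean, with a median of -0.09. Mrpl4 and Mrps30 had the smallest p of them, at differences of 0.38 and -0.43.

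Of 22 tested assembly factors outside the symbol rule, 14 were below vehicle in the mean, with a median of -0.11. Surf1, an assembly factor of complex IV, had 795.2 on the vehicle chip against 1125.1, 952.9 and 1135.7, all above it. Cox15, which makes haem a for the same complex, had 912.3 against 770.8, 629.4 and 686.8, all below it. These factors of 1 enzyme thus lay on opposite sides, with differences of 0.42 and -0.39. Of 8 tested transcription factors and genes of mitochondrial DNA upkeep, 4 were below vehicle. Ssbp1, a single-strand binding protein of mitochondrial DNA, had 164.4 against 200.5, 289.5 and 283.8. Esrrb, an estrogen-related receptor, had 689.4 against 500.6, 545.3 and 680.6. The coactivator gene Ppargc1a was under the filter. The creatine kinases Ckb and Ckmt1, which buffer ATP, differed by -0.10 and 0.08 and went both ways.

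**Figure D4:**
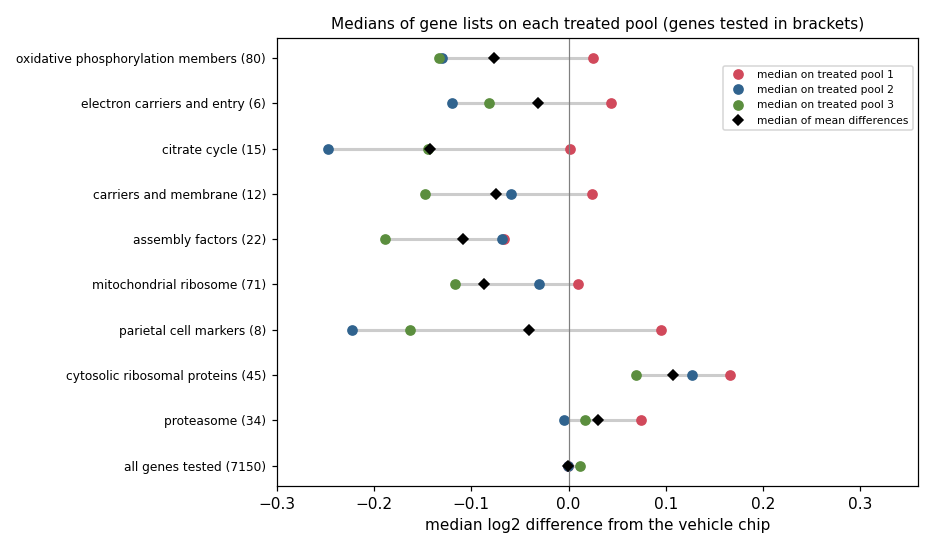
Median log2 difference from the vehicle chip (horizontal axis) for each gene list on treated pools 1, 2 and 3 (dots) and of the mean differences (diamonds), with the number of genes tested. Medians of the oxidative phosphorylation members run from -0.13 to 0.02 and those of the parietal cell markers from -0.22 to 0.10.

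Gene sets of other cell machinery gave a scale for these medians. The 45 tested genes of the cytosolic ribosomal protein pattern, of which 4 are S6 kinases, had medians of 0.17, 0.13 and 0.07 on pools 1, 2 and 3. Of them, 25 were above vehicle on every treated chip and 3 below, against 25.2% and 24.0% of all tested genes. The 34 genes of the proteasome symbol pattern, Psmc3ip among them, had medians of 0.07, -0.00 and 0.02. Both sets were also highest on pool 1. Neither had a called gene (lowest limma adjusted p = 0.5731, that of Rpl23a), and the difference between these sets and the respiratory genes was not tested.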

How the data were processed

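Signals of 15866 probe sets on 4 RAE230A chips were taken from the authors' deposited table, which holds 1 linear intensity per probe set and chip. Per the labels' protocols, biotin-labelled cRNA was hybridised. For the signal algorithm and its scaling, the source is not given in the labels or files used here. The 2%-trimmed mean of the deposited intensities was 496.8 to 497.2 on every chip, so all values are relative to each chip's total. Per the file headers, the chips shared 1 lot and 1 hybridisation date and used 4 fluidics modules, 1 each; module and group cannot be told apart.

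Signals were used as log2(signal + 16), so folds of dim genes are understated. Probe sets whose mean of these values over all chips fell under the 40th percentile (signal 144.7) were excluded, and 9520 stayed. The test was limma 3.58.1 under R 4.3.3 (eBayes with a trend), 3 treated chips against 1 vehicle chip, two-sided, Benjamini-Hochberg threshold 0.05 over all probe sets. The spread comes from treated chips alone (residual df 2, prior df 11.5), and the vehicle chip is taken to share it. A gene was represented by its brightest tested probe set (7150 genes). Names came from the platform annotation, updated by Entrez ID against GRCr8 (12748 of 12783 matched). Members, gene lists and motifs were chosen with earlier results of these data known. Genes are named when called; for the smallest unadjusted p (5 each in complexes I, IV and V, 4 in complex III, the top genes of the other lists); as complex II; or as isoforms. Ndufa5, Ndufa11, Ndufb3, Ndufs1, Ndufs3, Ndufs7, Ndufv1, Ndufv2, Ndufv3, Atp5me, Uqcrc1, Uqcrfs1, Uqcrh, Cox6c, Atp5f1b, Atp5if1, Atp5pf and Ndufaf3, 5 and 8 and Cox5a were added after their values were seen. No set test was run.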

Additional observations from a re-analysis of the deposited data

How the results depend on the processing

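Over 15 alternatives, 2 of them chosen after seeing the data (a filter on the mean linear signal, and Ndufa4 grouped by its symbol), no member was called. In the settings that kept all chips, medians of the complexes moved by less than the SD between pools. Without 1 treated pool, they ran from -0.14 to -0.04 (complex I), -0.21 to -0.13 (II), -0.17 to -0.03 (III), -0.08 to 0.05 (IV) and -0.07 to -0.06 (V). Members at an unadjusted p under 0.05 in limma numbered 0, and 1 with a pseudocount of 64, with quantile normalization or with the mean over a gene's probe sets. They numbered 7 of 82 without pool 1, 1 without pool 2 and 1 without pool 3. Of all 9520 probe sets, 664, 592 and 435 did so in these settings. Genes below vehicle on all remaining treated chips numbered 30 to 51 and those above 12 to 20 when a pool was left out, since fewer chips must then lie on 1 side. No share over all genes was drawn up for these counts. Of 415 values of 28 named genes, 410 kept their direction. Cox4i1 was at -0.021 with quantile normalization, Cox6a1 at -0.002 with quantile normalization and -0.003 with centring on the 75th percentile, and when a pool was left out Cox6a1 ran from -0.055 (pool 1) to 0.045 (pool 2) and Cox7a2l from -0.105 (pool 1) to 0.014 (pool 2); the cause was not tested. No paired analysis was possible because the vehicle group has 1 chip, so the groups share fewer than 2 replicate numbers. The number of chips limits the precision, and the dimmest members, such as Cox6a2 and Cox8b, lie too low to be compared.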

Other observations

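The 7 probe sets that name a respiratory gene together with another gene belong to no comparison above. Atp5mc1, a ring subunit gene of ATP synthase paired with Atp5mc1l1, had 10139.5 on the vehicle chip and 8054.6, 8185.6 and 7769.7 on pools 1, 2 and 3, with all treated chips below vehicle. Cox5a, paired with an unnamed locus, had 10328.9 against 8706.7, 9441.2 and 8896.9, also all below. The single-gene Cox5a probe set had 353.2 against 389.1, 247.7 and 447.5 and went both ways. Ndufs5, paired with a pseudogene, had 5083.9 against 4893.8, 4791.5 and 4226.8. The probe sets of Cox7a2, Atp5mc2, Uqcrb and Ndufa10 had treated signals on both sides of the vehicle signal.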
